A study of Mus musculus with 4 samples.

Results

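NFIC peaks in later introns are the binding sites of this transcription factor that lie inside a gene, past its first intron. They were chosen as annotated peaks downstream of the nearest transcription start site (TSS), in an intron other than intron 1. The intron number is that of the transcript named in the annotated peak list. This rule uses no measured value, but the class was chosen with earlier results of these data known. The rule gave 2732 of 15824 peaks, which is 17.3% of the list (95% Wilson confidence interval 16.7 to 17.9). Chromatin came from the pancreas of wild-type mice of mixed strain, 8 to 12 weeks old by the deposited description, a range that differs from the one in the study's text. There were 3 ChIP libraries made with an anti-NFIC antibody and 1 library of input DNA without antibody. The list is a merge over the ChIP libraries, so each peak has 1 position and 1 score, the list has no spread between libraries and does not show how deeply they were sequenced. Whole pancreas is mostly acinar tissue, and peaks from acinar, ductal, islet and other cells cannot be told apart in it. Every peak is 173 bp long, with positions on the mouse build mm10. All intervals and tests below compare classes of peaks within this list and cover counting error only.

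NFIC belongs to the nuclear factor I (NFI) family, with NFIA, NFIB and NFIX. These proteins bind DNA as dimers, and a full site is a pair of facing half-sites, TGGC and GCCA, separated by a short spacer. Because the site is a palindrome, it reads the same on both strands. In the pancreas, acinar cells make and secrete digestive enzymes under the control of factors such as PTF1A, NR5A2, GATA6 and MIST1. Introns hold many enhancers, which can act on the gene they lie in or on another gene nearby.

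The strongest later-intron peaks show the full site in the DNA itself. A full site was taken as TGGC and GCCA with 5 bases between them, with at most 1 mismatch in the 8 fixed bases, in the 200 bp around the peak centre. The highest score of all peaks in the list, 68.1, belonged to a later-intron peak annotated to intron 2 of 4 of A730008H23Rik, 351 bp downstream of its TSS at chr1:88277120-88277292. Its sequence is shown whole, on the plus strand of RefSeq GRCm38, because it holds an exact site 16 bp from its centre. Capitals mark the 8 fixed bases.
A730008H23Rik: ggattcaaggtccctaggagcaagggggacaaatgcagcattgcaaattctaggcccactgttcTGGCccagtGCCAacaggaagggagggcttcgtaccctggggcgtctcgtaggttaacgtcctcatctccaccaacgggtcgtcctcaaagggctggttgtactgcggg

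The next 5 later-intron peaks by score also held an exact site, and 61 bases around it are shown for each with the same capitals. They lie in Bahcc1 (score 43.8, intron 2 of 27, chr11:120255315-120255375), Trit1, a tRNA-modifying enzyme (35.1, intron 8 of 9, chr4:123050913-123050973), Rap1gap2, an inhibitor of the small GTPase Rap1 (34.3, intron 14 of 24, chr11:74409014-74409074), Dusp8, a MAP kinase phosphatase (31.7, intron 3 of 6, chr7:142084937-142084997), and Zbtb16, a zinc-finger repressor (31.1, intron 3 of 6, chr9:48740271-48740331). The spacer differs in every one of them, while both half-sites are complete. For the peaks of A730008H23Rik and Bahcc1 the named intron was not located in the RefSeq transcripts used here. Their place in a later intron rests on the peak annotation.
Bahcc1: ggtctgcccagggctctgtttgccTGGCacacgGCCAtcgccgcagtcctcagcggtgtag
Trit1: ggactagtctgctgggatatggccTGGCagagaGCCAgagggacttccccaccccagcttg
Rap1gap2: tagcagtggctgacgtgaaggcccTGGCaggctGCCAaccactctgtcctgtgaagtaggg
Dusp8: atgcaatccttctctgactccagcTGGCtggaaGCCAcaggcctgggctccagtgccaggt
Zbtb16: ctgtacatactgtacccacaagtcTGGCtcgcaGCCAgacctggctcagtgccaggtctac

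Of the 10 highest-scoring later-intron peaks, 9 held a full site. Ppp5c, a serine/threonine phosphatase (30.3, chr7:17017205-17017265), Gucd1 (27.5, chr10:75510626-75510686) and Hdac5, a class IIa histone deacetylase (27.1, chr11:102218992-102219052), each missed the outer T of the left half-site. Counted from 1 at the left end of the site on the plus strand, the substitutions are T1G in Ppp5c, T1A in Gucd1 and T1C in Hdac5.
Ppp5c: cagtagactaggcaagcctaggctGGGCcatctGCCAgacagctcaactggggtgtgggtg
Gucd1: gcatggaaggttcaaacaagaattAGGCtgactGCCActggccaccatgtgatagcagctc
Hdac5: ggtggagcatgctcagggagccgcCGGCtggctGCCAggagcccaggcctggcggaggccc

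The exception among the 10 was the peak in intron 3 of 8 of Arid3a, an AT-rich DNA-binding factor, with a score of 28.3 at chr10:79934361-79934533. Its best match missed 2 of the 8 fixed bases, and it is shown whole as the strongest later-intron peak without a full site.
Arid3a: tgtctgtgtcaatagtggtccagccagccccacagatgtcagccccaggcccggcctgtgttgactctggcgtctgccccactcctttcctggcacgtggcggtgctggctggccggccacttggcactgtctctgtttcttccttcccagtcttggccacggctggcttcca

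Over all later-intron peaks, 1568 of 2732 held a full site (57.4%, 95% confidence interval 55.5 to 59.2), and 465 (17.0%, 15.7 to 18.5) held an exact one. The same introns, cut into 291107 windows of 200 bp that overlap no peak window, held a full site in 7.15% and an exact site in 0.334% of windows. In windows 1000 bp to either side of the peaks the shares were 8.49% and 0.421%. The full site was thus concentrated at the peaks and not along the introns that carry them. A single full site was found in 1290 peaks, 2 in 241 peaks, and 3 or more in 37 peaks, among them Bahcc1 with 4 and Dusp8 with 3.

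A single spacing of the half-sites stood out. When the spacer was varied from 0 to 12 bases, the exact pair was found in 17.0% of later-intron peaks at 5 bases and in 0.403 to 2.27% at every other length. The next highest values were 2.27% at 1 base and 2.09% at 10 bases. In the other windows of the same introns the pair was no more frequent at 5 bases (0.334%) than at most other lengths, of which the highest was 0.637% at 7 bases.

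**Figure D1:**
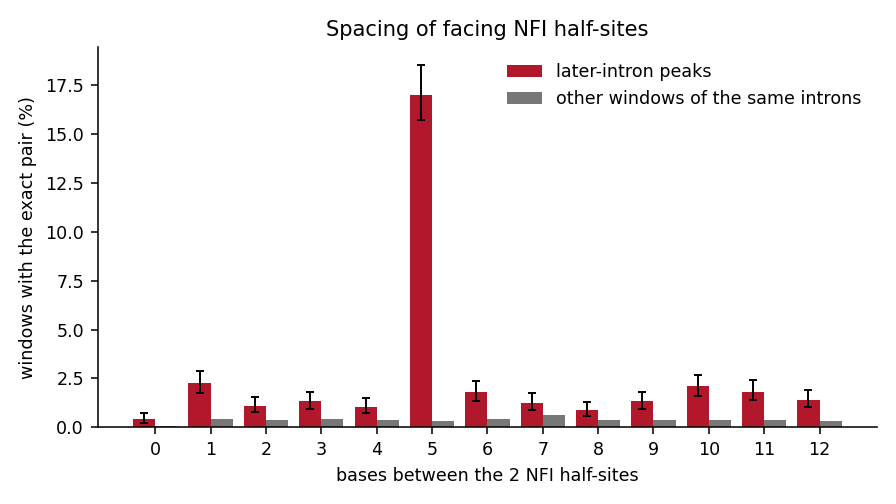
Share of 200-bp windows (%) that hold TGGC and GCCA exactly, against the number of bases between them, in the 2732 later-intron peaks (bars with 95% Wilson intervals) and in other windows of the same introns. A single spacing of 5 bases stands out at 17.0% in the peaks, and no such step is seen in the other windows.

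The sites lay near the middle of the peaks. The best site was a median of 23 bp from the peak centre, and its centre fell within 25 bp in 840 of the 1568 peaks with a site (53.6%, 51.1 to 56.0). Among equally good sites in a peak the one nearest the centre was taken, which draws positions inward. A single site, with no such choice, was present in 1290 of these peaks. Between 168 and 186 peaks fell in each of the 10-bp steps from -20 to 20 bp, against 5 and 7 in the outermost steps.

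**Figure D2:**
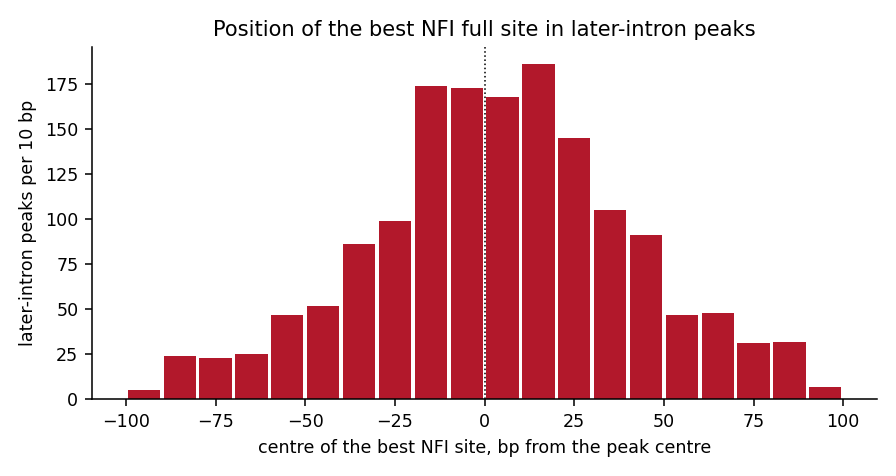
Number of later-intron peaks per 10 bp against the distance of the best NFI full site from the peak centre (bp, plus strand). Among equally good sites in a peak the one nearest the centre is plotted. The 1568 peaks with a site gather around 0 and thin out toward both ends of the window.

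The mismatch, where there was one, was not spread evenly over the half-site. Among the 1103 peaks whose best site had 1 mismatch, the missed base was the inner C of a half-site in 485 (44.0%) and the outer T in 467 (42.3%). The G next to the C was missed in 120 (10.9%) and the G next to the T in 31 (2.81%). An exact site had a T directly before it in 30.8% and an A directly after it in 34.2% of 465 peaks, the bases that would extend the palindrome. None of these shares was computed for sites outside the peaks. The part of base composition in them was not tested.

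Peaks with a full site had higher scores. The score is the authors' own measure of a peak on a scale that is not given in the sources used here, and ranged from 3.39 to 68.1 in later introns with a median of 6.57, the median of the whole list. At or above that median, 899 of 1445 later-intron peaks held a full site (62.2%), against 669 of 1287 below it (52.0%). The odds ratio was 1.52 (95% confidence interval 1.31 to 1.77; adjusted p = 4.94e-07, two-sided Fisher's exact test, Benjamini-Hochberg over 7 tests). Split at the quartiles of score of the whole list, the share was 53.4%, 50.6%, 56.3% and 68.0% from the lowest to the highest scores. The largest rise thus came at or above the upper quartile. It reached 83.0% (74.5 to 89.1) in the top 100 later-intron peaks.

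Exact sites did not have higher scores than sites with 1 mismatch. Peaks whose best site was exact had a median score of 6.57, those with 1 mismatch 7.17, those with 2 mismatches 6.37 and those with 3 or more 5.58. The score was at or above the list median in 52.7%, 59.3%, 49.4% and 36.6% of them. For exact sites alone, the share did not differ between the upper and lower groups of score (odds ratio 0.99, adjusted p = 0.959 by the same Fisher's exact test).

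**Figure D3:**
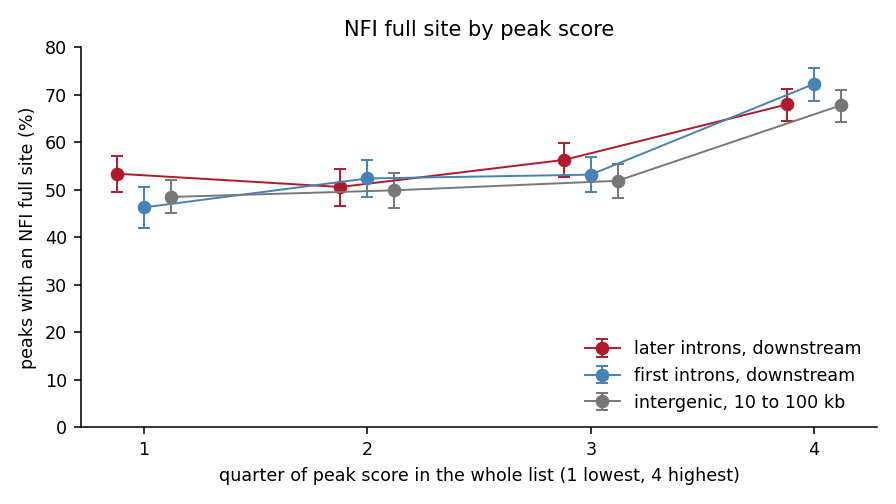
Share of peaks with an NFI full site (%) between the quartiles of peak score of the whole list (1 lowest, 4 highest), with 95% Wilson intervals, for later-intron, first-intron and intergenic peaks. In later introns the share was 53.4% at the lowest and 68.0% at the highest scores, and the intervals of the 3 classes overlap at each step.

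Later-intron peaks were not separated from the 2538 first-intron peaks, which are also downstream of the nearest TSS, in how often they carried the full site (57.4% against 56.6%, odds ratio 1.03, 0.925 to 1.15, adjusted p = 0.674, Fisher's exact test). Against the 2983 intergenic peaks 10 to 100 kb from a TSS the share was higher (57.4% against 54.5%, odds ratio 1.13, 1.01 to 1.25, adjusted p = 0.0471, Fisher's exact test). By the same exact test, that call was lost for exact sites (adjusted p = 0.325), in the peaks as deposited (0.0919) and among peaks at or above the median score (0.346). A score at or above the list median was found in 52.9% of later-intron, 54.2% of first-intron and 49.8% of intergenic peaks. The first pair was not separated (odds ratio 0.948, 0.851 to 1.06, adjusted p = 0.486, Fisher's exact test), and the second was (odds ratio 1.13, 1.02 to 1.26, adjusted p = 0.0461). With the upper quartile of score as the border, the second call was lost (odds ratio 1.10, adjusted p = 0.228, Fisher's exact test).

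Binding sites of other acinar factors were searched in the same 200-bp windows on both strands, each as fixed letters. Relative to the other windows of the same introns, later-intron peaks more often held the E-box of bHLH proteins such as PTF1A and MIST1 (CAGCTG or CAGATG, 37.0% against 22.8%). The same was seen for GATAAG of GATA factors (9.37% against 6.81%), for CAAGGTCA or CAAGGCCA of NR5A2 (5.93% against 3.20%), and for TGTTTAC or TATTTAC of forkhead factors (8.13% against 6.39%). The values stood at 22.7% against 18% for TGGGAA of RBPJ and 1.06% against 0.568% for CAAAGTCCA or CAAAGGTCA of HNF4. CATTCC of TEAD factors (10.8% in both) and TGAGTCA or TGACTCA of AP-1 (3.92% against 3.37%) were close to the level of the introns. In all 15824 peaks the shares were 32.5% for the E-box, 7.75% for GATA, 5.37% for NR5A2, 6.38% for forkhead, 20.9% for RBPJ, 1.04% for HNF4, 10.3% for TEAD and 3.65% for AP-1. For the first 6 motifs the level of the introns lay below the Wilson interval of the peaks. That was also so for GGGCGG of SP factors (6.41%, 5.55 to 7.39, against 2.28%). The HNF1 motif, with 1 mismatch allowed, was in 10 later-intron peaks (0.366%, 0.199 to 0.673), against 0.0636% of the other windows and 0.278% of all peaks. These shares are descriptions of letters. The GC content of the other windows of the introns was not compared, and its part in these differences was not tested. CAAGGCCA of NR5A2 also contains the NFI half-site GCCA, so its share is not independent of the NFI sites. Median GC content was 51.0% in later-intron peaks and 53.5% in first-intron peaks.

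Of the 11 motifs, 2 differed between later-intron and first-intron peaks. The GC box GGGCGG of SP factors was in 6.41% of later-intron and 14.9% of first-intron peaks (odds ratio 0.392, 0.325 to 0.474, adjusted p = 8.31e-23, Fisher's exact test over 11 motifs) and in 21.1% of all peaks. The difference was not seen beyond 5000 bp from the TSS, where the shares were 5.22% and 5.76% (adjusted p = 0.834, Fisher's exact test). The consensus of CTCF, the factor that anchors chromatin loops, was in 66 later-intron peaks (2.42%), in 0.906% of first-intron peaks (odds ratio 2.71, 1.68 to 4.36, adjusted p = 0.000124, Fisher's exact test) and in 2.22% of all peaks. It remained different beyond 5000 bp (2.47% against 1.14%, adjusted p = 0.0416, Fisher's exact test). Only 0.100% of the other windows of the same introns held it. Among the 66 peaks with a CTCF consensus, 25 had a full NFI site (37.9%, 27.1 to 49.9). Of the peaks with this consensus, the strongest (23.9) is listed under the nearest gene 4930467E23Rik, and no host gene could be assigned to it. Next came peaks in Fbxl18, an F-box protein (22.9), Card19 (19.5), Egflam (17.3) and Celsr2, a cadherin (16.3). All were named after their values were seen.

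The consensus of NR5A2, a nuclear receptor of acinar cells, was found in 162 later-intron peaks with a median score of 7.57. A full NFI site was present in 91 of them (56.2%, 48.5 to 63.6), close to the 57.4% of all later-intron peaks. Their centres were a median of 39.5 bp apart, and 57 of the 91 lay within 50 bp. No chance level was computed for this distance. Full NFI sites lie near the peak centre in general, and CAAGGCCA of NR5A2 contains the half-site GCCA. The distance is therefore a description, and joint binding of NFIC and NR5A2 was not tested. Peaks with the forkhead motif held a full NFI site in 43.7% (37.3 to 50.3 of 222 peaks) and those with the E-box in 57.3% (54.3 to 60.3 of 1010 peaks).

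Transposable elements held a minor part of the peaks. The authors' annotation placed 393 later-intron peaks on a repeat (14.4%), against 11.6% of first-intron peaks (odds ratio 1.28, 1.09 to 1.5, adjusted p = 0.0112, Fisher's exact test). Beyond 5000 bp from the TSS the odds ratio was 0.989 (adjusted p = 0.926, Fisher's exact test). SINEs made up 161 of them, LTR elements 121, LINEs 62 and DNA transposons 28. A full NFI site was found in 64.0% of peaks on SINEs (56.3 to 71.0), 47.9% on LTR elements (39.2 to 56.8) and 57.8% off repeats (55.8 to 59.8). The SINE families B3 and B4A were the most frequent names, with 20 and 18 peaks, of which 11 and 13 held a site. CpG islands were annotated at 1.21% of later-intron and 11.9% of first-intron peaks.

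Peaks past the first intron and downstream of the TSS are placed farther from it by the choice itself, so their distances are a description. The median distance was 27598 bp with quartiles of 11114 and 62244 bp, against a median of 6624.5 bp in first introns. The range was from 170 to 781459 bp, and the closest later-intron peak left out because it lies upstream of its nearest TSS was at -1046 bp. Within 1 kb of the TSS there were 43 peaks (1.57%), and beyond 100 kb there were 354 (13%). The share with a full site was between 55.8% and 59.5% in each of 6 distance classes. Up to 10000 bp it was 57.2% and farther out 57.4% (odds ratio 0.991, 0.826 to 1.19, adjusted p = 0.926, Fisher's exact test).

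Intron 2 held 944 of the peaks (34.6%), intron 3 held 458 (16.8%), and 374 (13.7%) lay past intron 10. The highest number was intron 97 of 102 in Dst, which encodes the cytoskeletal linker dystonin. The full site was found in 57.4% of peaks in intron 2, 56.8% in intron 3, 56.0% in introns 4 to 5, 57.6% in introns 6 to 10 and 59.6% past intron 10. Median scores in the same order were 6.77, 7.17, 6.57, 6.57 and 6.17. In the last intron of their transcript lay 308 peaks (11.3%), of which 58.1% held a site.

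Per length of intron, peaks became rarer with intron number. RefSeq transcripts gave 677.5 Mb of later intron that is in no exon and no first intron, with 2567 later-intron peaks, or 3.79 peaks per Mb (95% Poisson interval 3.64 to 3.94). First introns had 8.63 per Mb (8.29 to 8.97). By the lowest intron number a base has over transcripts, the density was 5.43 per Mb in intron 2, 4.29 in intron 3, 3.79 in introns 4 to 5, 3.23 in introns 6 to 10 and 2.23 (2.0 to 2.48) from intron 11 on. Neighbouring intervals overlapped between introns 3 and 4 to 5 and between introns 4 to 5 and 6 to 10, and were apart elsewhere. When the 5000 bp after every TSS were left out, later introns had 3.58 and first introns 6.28 peaks per Mb. Autosomes together had 3.95 peaks per Mb of later intron, from 2.82 on chromosome 3 to 6.61 on chromosome 11, and chromosome X had 0.311 (0.142 to 0.590) from 9 peaks.

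**Figure D4:**
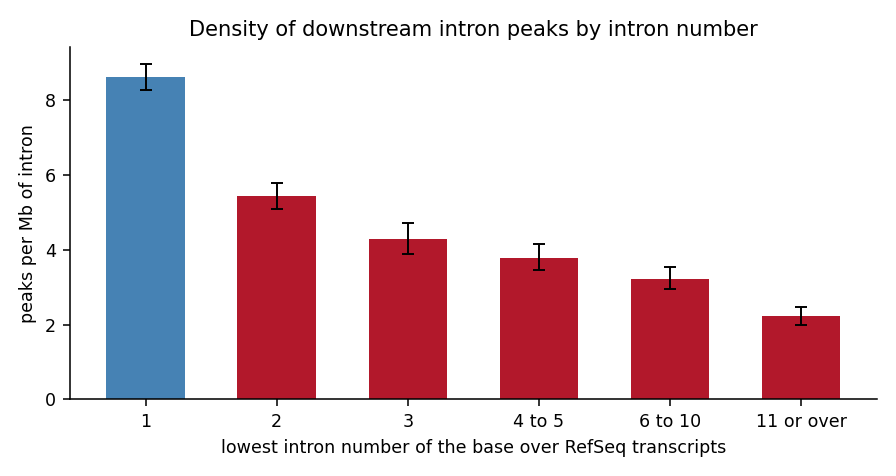
Peaks per Mb of intron with 95% Poisson intervals, by the lowest intron number of each base over RefSeq transcripts; the first bar holds first-intron peaks and the others later-intron peaks. Density falls from 8.63 per Mb in first introns to 2.23 per Mb from intron 11 on.

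Inside their introns the peaks had little preference for a part. With each intron cut into 3 equal parts, 35.5% of 2714 peaks lay in the part nearest the 5-prime end, 32.1% in the middle and 32.4% in the part nearest the 3-prime end. The median distance to the nearer exon was 2246 bp, and 298 peaks (11%) lay within 200 bp of one. The introns with a peak had a median length of 8445 bp against 1312 bp for all 184725 later introns. Longer introns have more room for peaks, so picking introns that hold one favours long ones. A preference for long introns was not tested. Of 2313 introns with a peak, 295 held 2 or more. At most 6 peaks shared an intron, which was the case in 3 introns. A different RefSeq transcript placed 159 of the peaks (5.82%) in a first intron or an exon.

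The gene around the peak was not always the gene with the nearest TSS. A host gene, meaning the gene whose transcript the annotation names for the intron, could be assigned to 2722 peaks. It was the nearest gene for 2166 of them (79.6%, 78.0 to 81.0). For the other 556, the nearest TSS belonged to a protein-coding gene in 355 and to a noncoding RNA in 189, including 93 microRNAs, and was on the opposite strand from the host in 474. In the list of nearest genes such peaks stand under another name. The peak of score 34.3 in Rap1gap2 is listed under the olfactory receptor gene Olfr412, the one in Hdac5 under Mir8101, 5 peaks in Casz1 under Gm13205, 5 in Msi2 under Mir378b, 4 in Gmds under Foxc1 and 4 in Camta1 under Gm13090.

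Most host genes held a single peak, and a smaller number held several. Of 1911 host genes, 1433 had 1 peak, 295 held 2, 109 held 3 and 74 held 4 or more. Casz1, a zinc-finger transcription factor, held 10 peaks in 108.8 kb of later intron (91.9 per Mb), with scores from 6.77 to 20.1, and 6 of the 10 had a full site. Xylt1, the xylosyltransferase that starts glycosaminoglycan chains, also held 10, with scores from 4.18 to 8.37 and 4 full sites. Camta1, a calmodulin-binding transcription activator, held 10 spread over 768.1 kb (13 per Mb), with scores from 4.18 to 12.5 and 7 full sites. A further 3 genes held 8 peaks each. Rap1gap2 had scores from 4.18 to 34.3 and 5 full sites. Arhgap26, a GTPase-activating protein, had scores from 3.59 to 12.5 and 1 full site, and Arid1b, a subunit of the SWI/SNF remodelling complex, had scores from 4.78 to 8.56 and 1 full site. Genes with 8 peaks thus held between 1 and 5 full sites, and genes with 10 peaks between 4 and 7.

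By nearest gene, Xylt1 led with 10 peaks and Nfib followed with 7. Vgll4, Cdkal1, Slc39a11, Camta1, Etv6 and Zswim6 had 6 each. Vgll4, a cofactor of TEAD factors, had a highest score of 19.9, and 1 of its 6 peaks (17.1) lies in intron 19 of 19 of Atg7, an enzyme of autophagosome formation. Cdkal1, a tRNA-modifying enzyme, reached 16.5, Slc39a11, a zinc transporter, 14.1, Etv6, an ETS-family repressor, 10.6 and Zswim6 10.4.

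**Figure D5:**
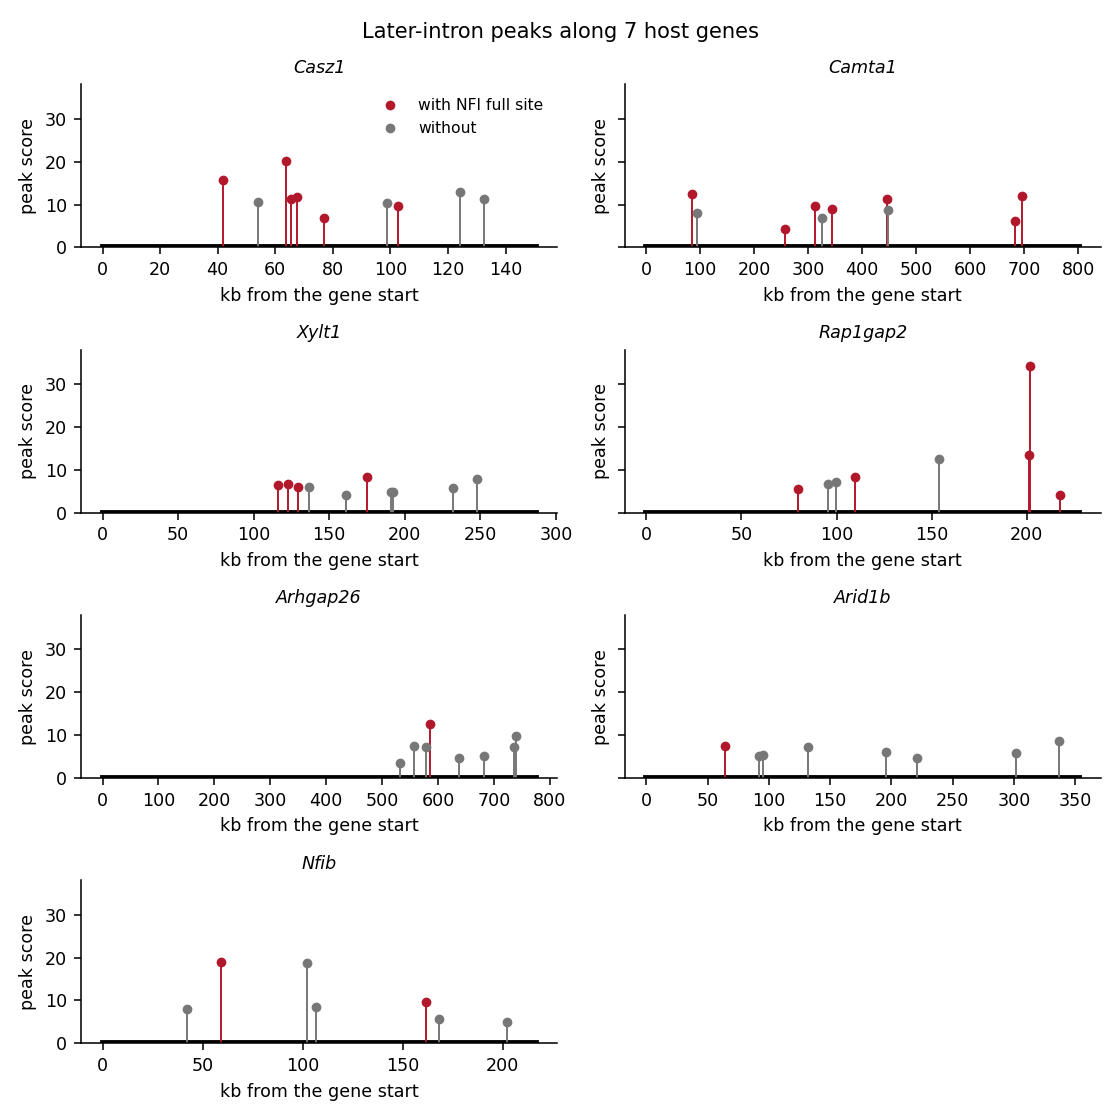
Peak score (vertical lines and points) against distance from the gene start (kb) for later-intron peaks in the 6 host genes with the most peaks and in Nfib; the black line is the length of the gene, red marks a peak with an NFI full site and grey one without. The highest point is the 34.3 of Rap1gap2, and Arhgap26 and Arid1b each show 1 red point among 8.

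Gene lists chosen for the pancreas, with earlier results of these data known, were read against all 17494 protein-coding genes with at least 2 introns. Of those genes, 9.95% were the nearest gene of a later-intron peak and 10.4% held such a peak in a later intron of their own, at 3.76 peaks per Mb. A full site was in 1494 of these 2605 peaks. In lists where it is not given below, the count was 7 of 11 for acinar factors, 3 of 5 for digestive enzymes and 7 of 11 for exocytosis. It was 10 of 18 for autophagy, 27 of 48 for chromatin, 22 of 37 for growth factors, 7 of 19 for junctions and 4 of 5 for other cells. No list was tested against all genes. Long genes have more room for peaks, so the density per Mb of later intron is given beside each count. That density is not adjusted for intron number, with which it fell over all genes, or for distance to the TSS.

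Genes of the NFI family held NFIC peaks. Later introns of Nfia, Nfib and Nfix held 15 peaks in the 0.608 Mb of the family, or 24.7 per Mb (Poisson interval 13.8 to 40.7), with a median score of 9.56. No later-intron peak was found in the fourth gene, Nfic. Nfia had peaks of 19.9, 12.0, 11.2 and 3.98, all in intron 2. Nfib had peaks of 18.9, 18.7, 9.56, 8.56, 7.97, 5.58 and 4.98 in introns 2, 6 and 8. Nfix had peaks of 15.5, 9.76, 7.37 and 5.38, of which 3 are listed under Lyl1. A full site was found in 7 of the 15. The exact sites of Nfia (19.9, chr4:97869236-97869296) and Nfix (7.37, chr8:84744163-84744223) are shown beside the site with 1 mismatch (T1G) in the strongest Nfib peak (18.9, chr4:82447361-82447421).
Nfia: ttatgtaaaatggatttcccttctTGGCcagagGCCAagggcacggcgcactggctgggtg
Nfix: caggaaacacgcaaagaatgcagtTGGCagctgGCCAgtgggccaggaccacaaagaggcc
Nfib: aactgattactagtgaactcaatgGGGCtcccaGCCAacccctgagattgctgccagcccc

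Among 21 acinar and pancreatic transcription factors with enough introns, 6 held a peak in a later intron (28.6% against 10.4% of all genes; 5.98 peaks per Mb, 2.99 to 10.7). Nr5a2 had 3 peaks with scores of 15.1, 5.38 and 5.18 in introns 6 and 8, and Tead1, a Hippo pathway factor, had 4 between 4.18 and 11.2. Mecom (16.7, 928 bp from its TSS), Myrf (14.5) and Zeb1 (4.78) had 1 each. The strongest Nr5a2 peak holds a site with substitution T1A at chr1:136934241-136934301, and the weakest of the 3 holds an exact site at chr1:136899690-136899750. Score and quality of the match did not go together in this gene.
Nr5a2, score 15.1: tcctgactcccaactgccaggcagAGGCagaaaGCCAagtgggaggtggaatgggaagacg
Nr5a2, score 5.18: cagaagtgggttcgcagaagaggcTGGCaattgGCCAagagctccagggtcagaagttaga

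Nuclear receptors had a later-intron peak in 8 of 41 genes (19.5%; 3.84 per Mb, 1.98 to 6.70), and 9 of the 12 peaks had a full site. The strongest was in intron 9 of 9 of Rxra, the common dimer partner of this class, with a score of 21.7. Rara, a retinoic acid receptor, had 9.36, Thrb, a thyroid hormone receptor, 8.96, and Nr3c2, the mineralocorticoid receptor, had 3 peaks of at most 6.17. Peaks listed under Nr3c1, the glucocorticoid receptor, lie in Arhgap26.

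Genes of digestive enzymes and secretory proteins are short, and 5 of 33 held a later-intron peak (15.2%), each with 1. Their 0.208 Mb of later intron gave 24 peaks per Mb, with a wide interval of 7.80 to 56.0. The peaks were in Cpa1, carboxypeptidase A1 (8.56, intron 2 of 9, 1016 bp from the TSS), Klk1, a kallikrein (7.77), Gp2, the main protein of zymogen granule membranes (7.57), Spink1, a trypsin inhibitor (7.17), and Cuzd1, a zymogen granule protein (4.38). All 5 lay within 10007 bp of the TSS. The part of intron number and of closeness to the TSS in their density was not tested. The Cpa1 peak holds an exact site, shown with the bases around it at chr6:30640148-30640208.
Cpa1: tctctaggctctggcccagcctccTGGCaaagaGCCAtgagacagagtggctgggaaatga

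Receptors and calcium signalling genes of the secretory response had a peak in 12 of 39 (30.8%; 4.15 per Mb, 2.69 to 6.13), and 20 of the 25 peaks held a full site. Sctr, the secretin receptor, had 3 peaks of 18.5, 11.6 and 7.97 in introns 3 and 4. Adcy9, an adenylyl cyclase, had 17.3, Plcb1, the phospholipase C that acts downstream of Gq-coupled receptors, had 4 with a highest score of 16.5, Atp2c2, a calcium pump of the secretory pathway, had 16.3, and Chrm3, the muscarinic receptor of acinar cells, had 7.57. Itpr1 (7.17 and 4.78) and Itpr2 (5.18, 4.78 and 3.59) encode calcium release channels of the endoplasmic reticulum. The strongest Sctr peak has the substitution G10T (chr1:120033219-120033279), and the second is exact (chr1:120027867-120027927), as is that of Atp2c2 (chr8:119755379-119755439).
Sctr, score 18.5: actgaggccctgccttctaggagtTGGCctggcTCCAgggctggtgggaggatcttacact
Sctr, score 11.6: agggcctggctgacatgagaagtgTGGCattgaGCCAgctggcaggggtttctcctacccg
Atp2c2: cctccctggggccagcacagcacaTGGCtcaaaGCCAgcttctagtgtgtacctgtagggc

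Exocytosis and vesicle transport genes had a peak in 8 of 43 (18.6%; 2.99 per Mb, 1.49 to 5.35). Stxbp6, a syntaxin-binding protein, had 3 with a highest score of 11, Rab27b, a GTPase of secretory granules, had 8.37 and 6.97, and Sec31a, a COPII coat subunit, had 7.57. Genes of the endoplasmic reticulum (ER) stress response and protein folding had one in 4 of 49 (8.16% against 10.4% of all genes; 3.97 per Mb, 1.08 to 10.2). These were Edem2 (10.2) and Sel1l (7.37), which serve ER-associated degradation, and the stress sensors Ern1 (4.18) and Atf6 (3.59). A full NFI site was found in 0 of these 4 peaks (95% Wilson interval 0 to 49.0%). A further peak, of 3.98, listed under Hspa5, the chaperone BiP, lies in Rabepk.

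Autophagy and lysosome genes had a peak in 11 of 50 (22.0%; 6.47 per Mb, 3.84 to 10.2), with a median score of 8.17 over 18 peaks. Atg7 had 17.1, Vps13d 13.7 and 9.36, Mtor, the kinase that restrains autophagy, 12.3 and 5.98, and its partner Rptor 9.36, 8.17 and 5.58. Sqstm1, the p62 receptor, had 8.56 in its own intron 5, Gabarap 8.56, and Ulk1, the initiating kinase, 7.57 and 6.57. Mtor holds an exact site at chr4:148463270-148463330.
Mtor: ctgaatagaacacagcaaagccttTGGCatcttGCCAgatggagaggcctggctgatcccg

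Chromatin regulators and corepressors had the highest share of genes after the NFI family, with 22 of 57 (38.6% against 10.4%; 8.82 per Mb, 6.50 to 11.7) and 48 peaks. Zmiz1 had 18.5, 8.37 and 3.98, Chd7, a remodelling ATPase, 13.1, Crebbp, an acetyltransferase, 11.4, and Tle3, a Groucho corepressor, 11, 9.36 and 8.76.

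Growth factor and insulin signalling genes had a peak in 19 of 63 (30.2%; 8.26 per Mb, 5.82 to 11.4), with 37 peaks and a median score of 7.57. Smad3, a TGF-beta effector, had 19.5 and 14.7, both listed under Aagab, and the inhibitory Smad6 had 16.1, 9.36, 8.76 and 5.38, all with a full site. Igf1r had 13.7, 12.3 and 5.98, Insr, the insulin receptor, 13.1, 9.16 and 6.57, and Fgfr1 11.8 and 7.77. The Smad3 peak of 19.5 holds an exact site at chr9:63659033-63659093.
Smad3: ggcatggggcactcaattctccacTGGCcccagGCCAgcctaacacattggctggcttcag

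Cell junction and polarity genes had a peak in 12 of 41 (29.3%), but in 6.61 Mb of later intron, which is 2.88 per Mb (1.73 to 4.49). Cdh1, E-cadherin, had the highest score with 19.5 and no full site, Llgl2, a basolateral polarity protein, had 14.3 and 7.37, and Pard6b 7.57 and 7.37. Markers of other pancreatic cells (islet, ductal, immune, stellate) had one in 5 of 40 (12.5%; 3.90 per Mb, 1.27 to 9.11). These were the endothelial Pecam1 (9.16) and Tek (3.98) and the endocrine Chga (7.17), Pcsk1 (6.17) and Pcsk2 (4.78). Which cells the reads of any of these peaks came from was not tested.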

How the data were processed

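The authors deposited 1 merged peak list with a peak score on a scale not given in the sources used here, a focus ratio that is a fraction of tags, and distances to the TSS. The submitters' processing notes name BWA, Picard, MACS2 and mm10, and the paper's methods, in a passage on public data, name HOMER for merging and annotation. The scores were used as deposited. The class of later-intron peaks and the gene lists were chosen with earlier results of these data known. Sequences and transcripts came from a RefSeq copy of GRCm38, and for 92.1% of 2708 later-intron peaks the distance to the TSS equalled the deposited one. Windows of 200 bp were searched, and classes were compared by two-sided Fisher's exact tests with Benjamini-Hochberg adjustment over 7 tests or 11 motifs at 0.05. Named were the nearest genes of the 10 highest scores (the host gene in place of the nearest for Rap1gap2 and Hdac5), the 6 genes with most such peaks (ties kept), and up to 6 genes per list by score. Host genes with most peaks, some lower-ranked list genes and CTCF examples were added after their values were seen. Some genes and sequences that these rules would name are not reported here. The search and the test were tested on simulated data. Tests ran in scipy 1.17.1 and statsmodels 0.14.6 (Python 3.11), with pysam 0.24.0 for sequences, pandas 2.3.3 and numpy 2.4.6 for tables and matplotlib 3.10.9 for plots.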

Additional observations from a re-analysis of the deposited data

How the results depend on the processing

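Leaving out a library was not possible, because the list gives no values per library. Of 42 alternatives, 20 kept the direction and the side of the threshold or stayed near the value reported. The share of later-intron peaks with a full site was 17.0% for exact sites, 44.5% in 100-bp windows, 55.1% in the peaks as deposited and 62.2% at or above the median score. The number of peaks was 1445 at or above the median score and 731 at or above the upper quartile, with 986 protein-coding genes in place of 1740 at or above the median. Density was 3.58 per Mb without the 5000 bp after each TSS. Only 1 motif in place of 2 differed beyond 5000 bp. Against intergenic peaks, the odds ratio of the full site was 1.10 for exact sites, 1.11 as deposited and 1.10 at or above the median score, and that of score 1.10 at the upper quartile, none past the threshold. The odds ratio turned to 0.99 for exact sites by score and to 0.989 for repeats beyond 5000 bp. Against first introns the full site turned to 0.997 as deposited, 0.988 at or above the median score and 0.963 beyond 5000 bp, and the score to 1.02 at the upper quartile. Near against far turned to 1.06 in 100-bp windows, 1.04 as deposited and 1.03 with a border of 5000 bp. These last 7 were past the threshold in neither form. The cause was not tested.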

Other observations

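Among the 74 host genes with 4 or more later-intron peaks, counted without regard to any gene list and picked after their values were seen, peak density varied widely. Gas6, a ligand of TAM receptor kinases, held 4 peaks in 26.32 kb of later intron (152 per Mb), Elk3, an ETS-family factor, 4 in 34.54 kb (116 per Mb), Appl2, an endosomal adaptor, 4 in 38.26 kb (105 per Mb) and Casz1 10 in 108.8 kb (91.9 per Mb). The lowest densities among these genes were 5.52 per Mb in Wwox, an oxidoreductase, and 6.11 per Mb in Plcb1, whose later introns span 906.2 and 655.1 kb. Since these genes were chosen for their number of peaks, the values are a description only.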
